A study of Rattus norvegicus with 6 samples.

Results

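Expression of the nuclear genes for subunits of oxidative phosphorylation was measured in rat liver on 6 diets. The genes were chosen by symbol: any probe set with exactly 1 annotated symbol that begins with Nduf followed by a, b, c, s or v and a digit, is Sdha, Sdhb, Sdhc or Sdhd, or begins with Uqcr, with Cox and a digit from 4 to 8, or with Atp5. This gave 88 probe sets for 76 genes, of 14506 genes named on the array, and the probe set with the highest mean stood for each gene. By symbol 33 genes belong to complex I, 4 to complex II, 7 to complex III, 16 to complex IV and 16 to complex V, the ATP synthase. The symbols Ndufs6-ps1 and Cox6c-ps1 are annotated as pseudogenes and stayed in because the rule takes them.

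Oxidative phosphorylation makes ATP in the inner mitochondrial membrane. Complexes I and II take electrons from NADH and succinate, ubiquinone and cytochrome c carry them on through complex III to complex IV, which reduces oxygen, and the ATP synthase uses the proton gradient that complexes I, III and IV build. Liver draws on this chain for fatty acid oxidation, urea synthesis and gluconeogenesis, which makes its subunit genes a natural place to look when the protein, sugar and fat of a diet change. Mitochondrial DNA encodes further subunits of complexes I, III, IV and V, and none of those is named on this array.

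The animals were adult male Wistar rats, 30 in all and 5 per diet, called mice in 1 label field and rats in the others. The diets were high protein with low fat (HP), with high sucrose and low fat (HP-HS) or with high sucrose and high fat (HP-HS-HF), and the same 3 backgrounds with normal protein (NP, NP-HS and NP-HS-HF). All rats first spent 10 days on the normal protein diet, then 5 weeks on their own diet, and were killed 2 h after a morning meal set at 87.6 kJ. RNA of the 5 livers of a diet was pooled and hybridised to 1 whole-transcript array, so no diet has a second pool. A p-value speaks of the scatter of 6 pools about a model of protein level plus background, and not of that between rats. Where a protein difference depends on the background, that dependence counts as part of the scatter. In pooled whole liver, fewer cells of a type and less RNA per cell cannot be told apart. The design asks whether dietary protein alters what sucrose and fat do to the liver.

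Values are log2 expression after RMA, and the array medians lay within 0.033 of each other. The defining hepatocyte markers were present, with albumin (Alb) between 13.78 and 13.85 on all 6 arrays. Probe sets with a mean above the 30th percentile, log2 5.142, were tested with limma, 20450 in all. Of the 76 subunit genes 74 were tested. The lung type isoform Cox4i2, with a mean of 5.00, and Cox6c-ps1, with 4.66, fell below this level, and Cox8c, the testis type isoform, lay just above it at 5.15. Signals of different probe sets depend on their probes and do not rank the transcripts.

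The promoters of 66 of the 76 genes were found in RefSeq (build GRCr8, from 250 bases before to 50 after the annotated start). They were searched on both strands for the cores of factors known for respiratory chain genes. The core of NRF1, GCATGCGC, stood in 9 of the 66 (13.6%), and in 2.66% of 27457 promoters of all genes. That of GABP, CGGAAG, stood in 35 (53.0%, against 17.4% of all), and that of YY1, AAGATGGC, in 13 (19.7%, against 3.44% of all). A TATAAA box stood in 5 (7.58%, against 14.3% of all). A match is a match of letters and not a measured site. The promoters of all genes were not matched to those of the subunit genes in expression or base content. At least 1 of the 3 cores stood in 42 (63.6%, against 21.4% of all). Of the 4 sequences printed here, the first pair holds such cores and the last pair holds none, with a steady gene printed first and then 3 genes named in the results. Uqcrc1 (chr8:118467973-118468272, plus strand), the core 1 protein of complex III, holds all 3 cores and had values between 10.33 and 10.48. Atp5me (chr14:1464610-1464909, plus strand), subunit e of the ATP synthase, had the lowest unadjusted p for protein, and its NRF1 core matches on both strands at overlapping letters. Ndufa10 (chr9:100489215-100489514, minus strand), a complex I subunit, had the widest range over the arrays. Cox8b (chr1:205408224-205408523, minus strand), the muscle type isoform of a complex IV subunit, holds a TATA box. Capitals mark the matches, and each sequence reads along its gene.
Uqcrc1: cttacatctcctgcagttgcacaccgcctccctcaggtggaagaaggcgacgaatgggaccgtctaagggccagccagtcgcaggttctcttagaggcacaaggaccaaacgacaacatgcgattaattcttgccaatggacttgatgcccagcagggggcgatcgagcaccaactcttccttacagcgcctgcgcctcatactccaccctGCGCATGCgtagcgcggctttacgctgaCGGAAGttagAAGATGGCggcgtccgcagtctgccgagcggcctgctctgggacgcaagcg
Atp5me: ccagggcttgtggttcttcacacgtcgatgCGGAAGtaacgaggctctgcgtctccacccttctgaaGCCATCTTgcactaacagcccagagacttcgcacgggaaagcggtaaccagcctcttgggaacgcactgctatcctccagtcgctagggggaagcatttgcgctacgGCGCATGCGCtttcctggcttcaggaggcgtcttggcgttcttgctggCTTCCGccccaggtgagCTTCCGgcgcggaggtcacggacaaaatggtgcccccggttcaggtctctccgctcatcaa
Ndufa10: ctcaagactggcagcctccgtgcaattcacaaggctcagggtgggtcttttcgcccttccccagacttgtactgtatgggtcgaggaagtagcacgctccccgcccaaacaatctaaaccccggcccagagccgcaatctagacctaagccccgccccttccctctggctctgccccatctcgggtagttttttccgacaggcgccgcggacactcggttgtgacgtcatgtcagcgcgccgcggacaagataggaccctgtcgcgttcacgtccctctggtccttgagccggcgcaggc
Cox8b: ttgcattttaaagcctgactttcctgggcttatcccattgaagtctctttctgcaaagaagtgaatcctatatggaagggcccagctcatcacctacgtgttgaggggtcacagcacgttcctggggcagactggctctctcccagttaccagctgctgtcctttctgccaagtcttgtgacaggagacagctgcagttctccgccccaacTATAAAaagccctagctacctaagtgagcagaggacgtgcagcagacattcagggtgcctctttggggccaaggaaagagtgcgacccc

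The subunit genes varied little over the 6 diets. The range of a gene, its highest minus its lowest array, had a median of 0.20 on the log2 scale (1.15-fold) over the 74 genes, and of 0.25 (1.19-fold) over all probe sets tested. A range of 1.5-fold or more was found for Ndufa10 alone, which is 1.35% of the genes against 6.47% of all probe sets. A range of 1.2-fold or more was found for 18 (24.3%, against 47.2% of all). Bright probe sets vary less on these arrays: among probe sets with a mean of log2 9 or more the median range was 0.21, and among the 59 subunit genes at that level it was 0.19. The plot of range against level shows most of the genes at the right, inside the cloud of other bright probe sets.

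**Figure D1:**
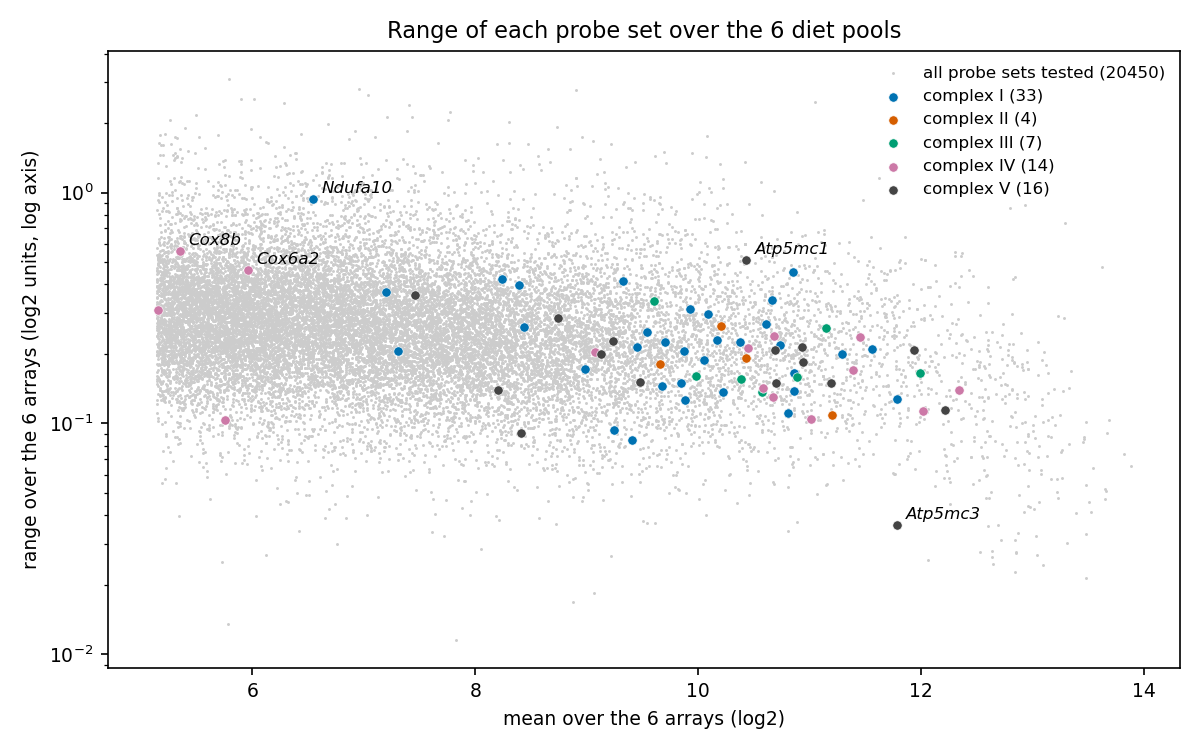
Range over the 6 arrays (log2 units, log axis) against the mean over the arrays (log2) for every probe set tested (grey) and for the 74 subunit genes, coloured by complex. Ndufa10 stands highest among the subunit genes at 0.94 and Atp5mc3 lowest at 0.036.

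Several catalytic and structural subunits had flat values. The beta subunit of the ATP synthase, Atp5f1b (probe set 10892968), where ATP is formed, had 12.21, 12.24 and 12.14 on HP, HP-HS and HP-HS-HF, against 12.19, 12.26 and 12.24 on NP, NP-HS and NP-HS-HF. Its alpha subunit, Atp5f1a (10802853), had 11.09, 11.21 and 11.22 on the HP arrays, against 11.14, 11.22 and 11.24 on the NP arrays. Atp5mc3 (10846248), a gene for the c subunit of the membrane rotor, had 11.80, 11.77 and 11.79 on the HP arrays and the same 3 values on the NP arrays in that order. Its range of 0.036 was the smallest of the tested subunit genes, while Atp5mc1, which also encodes the c subunit, ranged over 0.51. A dimmer probe set of Atp5mc3 (10940472), with a mean of 8.24, ranged over 0.17. For Atp5f1b, Atp5f1a and Atp5mc3 the protein groups overlap, and Atp5f1a was lowest on both low fat arrays.

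In complex IV, Cox4i1 (10808426), the broadly expressed form of subunit 4, had 11.02, 10.97 and 10.99 on HP, HP-HS and HP-HS-HF, against 11.02, 11.07 and 10.99 on NP, NP-HS and NP-HS-HF. Its isoform Cox4i2 (10840895), below the level tested, had 4.87, 4.76 and 5.15 on the HP arrays, against 5.17, 5.07 and 4.98 on the NP arrays. Cox5a (10844202) lay between 10.34 and 10.55, and Cox5b (10922572) between 8.98 and 9.18. Cox6a1 (10758978), the liver form of subunit 6a, lay between 10.61 and 10.74, and Cox8a (10728383), the liver form of subunit 8, between 11.95 and 12.07. Cox7a2l (10888127), which helps complexes III and IV associate, lay between 10.50 and 10.64. Ndufa4 (10861033), named for complex I and since placed in complex IV, lay between 11.48 and 11.69. Apart from the dim Cox4i2, which was highest on NP and lowest on HP-HS, these genes varied by less than 1.2-fold. Cox6b2, the testis type isoform, was as flat, at 5.72 to 5.82.

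In the complexes that feed the chain, Ndufv1 (10727418), which binds NADH, lay between 9.96 and 10.15, and Ndufs1 (10928486), the largest iron-sulfur subunit of complex I, between 9.59 and 9.73. The flavoprotein of succinate dehydrogenase, Sdha (10702467), had 10.46, 10.48 and 10.46 on the HP arrays, against 10.28, 10.43 and 10.45 on the NP arrays. The HP arrays of Sdha all lay above the NP arrays, by 0.18 on low fat and by less in the other backgrounds. Its iron-sulfur partner Sdhb (10873597) had 10.08, 10.23 and 10.34 on the HP arrays, against 10.20, 10.08 and 10.32 on the NP arrays, with both HS-HF arrays highest. In complex III the Rieske protein, Uqcrfs1 (10794935), had 9.53, 9.74 and 9.67 on the HP arrays, against 9.63, 9.40 and 9.64 on the NP arrays, and its highest and lowest values both came from high sucrose. The inhibitor of ATP hydrolysis by the synthase, Atp5if1 (10872692), lay between 9.01 and 9.21.

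**Figure D2:**
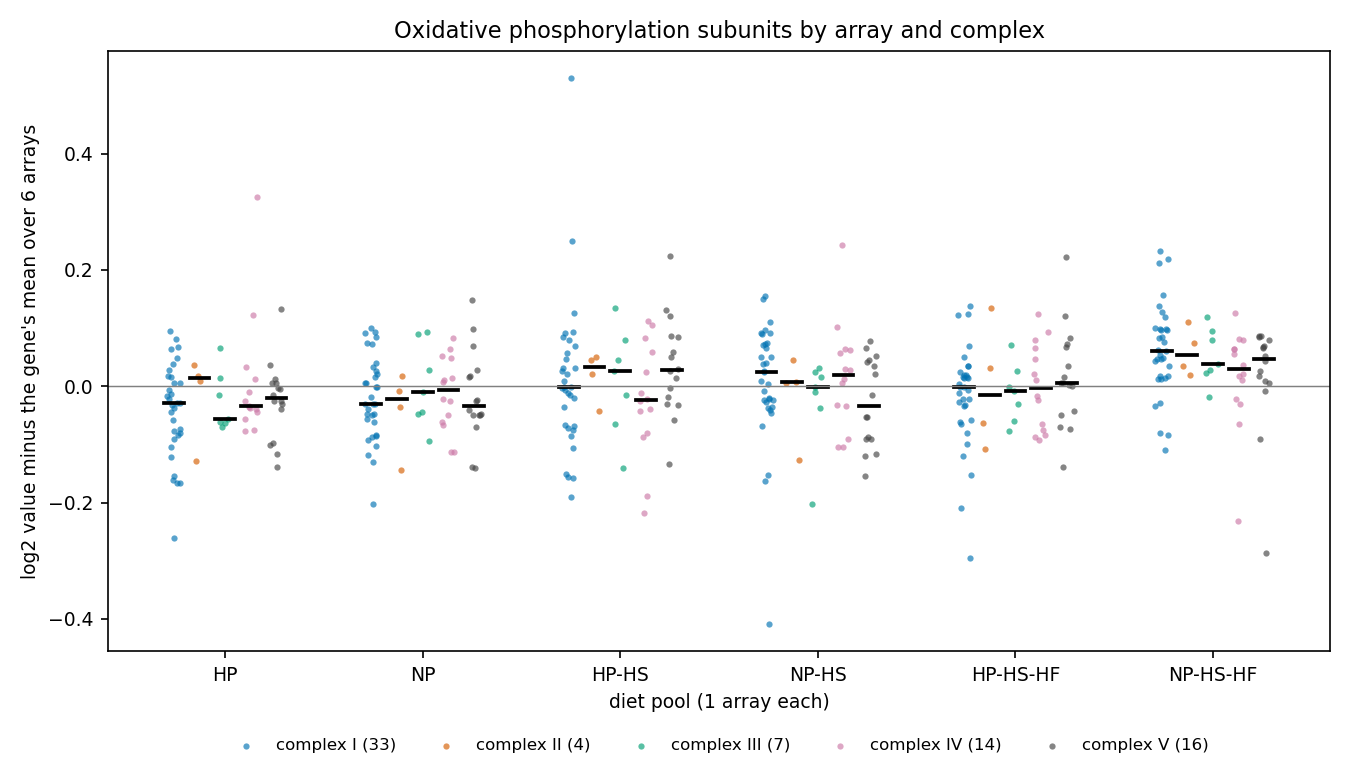
Each point is 1 subunit gene on 1 array, as its log2 value minus its mean over the 6 arrays, by complex (colour, number of genes in the legend), with a black bar at the median of the complex. The 5 medians on NP-HS-HF lie between 0.029 and 0.060, all above 0.

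No subunit gene passed the test of high against normal protein. The limma model held protein level and background, the protein difference is the mean over the 3 backgrounds, and a call needed a p under 0.05 after Benjamini-Hochberg adjustment across the 20450 probe sets. Of the subunit genes 0 were called, where 0.0440% of all probe sets were, and the lowest adjusted p was 0.421. An unadjusted p under 0.05 was reached by 5 (6.76%, against 8.71% of all). The differences lay in either direction: 27 genes were higher (36.5%, against 49.4% of all) and 47 lower, between -0.26 and 0.25, with a median of -0.026 beside -0.0014 for all probe sets tested, and of -0.013 without either HS-HF array. For 52 genes (70.3%, against 54.3% of all) the whole 95% interval of the difference lay within 1.2-fold either way, and for 73 within 1.5-fold (98.6%, against 97.0% of all), with Ndufa10 the exception.

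By complex the fitted protein differences of complex I had a median of -0.027, with 10 of 33 genes higher. Those of complex II had a median of -0.0063, with 2 of 4 higher. Those of complex III had a median of -0.040, with 2 of 7 higher. Those of complex IV had a median of -0.029, with 5 of 14 higher. Those of the ATP synthase had a median of 0.0026, with 8 of 16 higher. The HP arrays did not overlap the NP arrays for 13 genes (17.6%, against 14.9% of all), 3 above (Atp5me, Sdha and Ndufs6-ps1) and 10 below, so the count of 13 lies near the background. The 3 above compare with 7.35% of all (4.05%), and the 10 below with 7.58% (13.5%).

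Among the 5 genes at an unadjusted p under 0.05, Atp5me (10770996) had 7.46, 7.59 and 7.68 on HP, HP-HS and HP-HS-HF, against 7.32, 7.34 and 7.37 on NP, NP-HS and NP-HS-HF. All HP values lay above all NP values, and the fitted difference was 0.23 ± 0.070 (SE; limma, adjusted p = 0.421). Cox8b (10726669) had 5.68, 5.43 and 5.27 on the HP arrays, against 5.36, 5.25 and 5.12 on the NP arrays. It was higher on the HP array in each background while the groups overlap, with a fitted difference of 0.22 ± 0.069 (SE; limma, adjusted p = 0.457).

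Cox6a2 (10726114), the muscle and heart form of subunit 6a, had 5.88, 5.74 and 5.87 on the HP arrays, against 6.02, 6.20 and 6.04 on the NP arrays. The groups do not overlap, and the fitted difference was -0.26 ± 0.085 (SE; limma, adjusted p = 0.462). It was -0.16 without HP-HS or NP-HS. The muscle type isoforms of subunits 6a and 8 thus lay on opposite sides of 0. Both have dim probe sets, and the 7 muscle markers, of which 3 of 7 had a fitted difference above 0, summed to between 9.09 and 9.14 on the HP arrays and to between 9.07 and 9.18 on the NP arrays (log2 of the sum). Of the 2 tested brown fat markers 0 had a fitted difference above 0. The part of such RNA in these values was not tested.

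Ndufb2 (10854680), an accessory subunit of complex I, had 8.20, 8.15 and 8.03 on the HP arrays, against 8.26, 8.35 and 8.45 on the NP arrays. The groups do not overlap and the gap was widest on HS-HF, with a fitted difference of -0.23 ± 0.087 (SE; limma, adjusted p = 0.533). Without either HS-HF array it was -0.13. Ndufa1 (10931991), an accessory subunit encoded on the X chromosome and needed for assembly of complex I, had 8.13, 8.49 and 8.24 on the HP arrays, against 8.49, 8.49 and 8.53 on the NP arrays. All HP values lay below all NP values, but on high sucrose by less than 0.01, with a fitted difference of -0.22 ± 0.088 (SE; limma, adjusted p = 0.565).

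**Figure D3:**
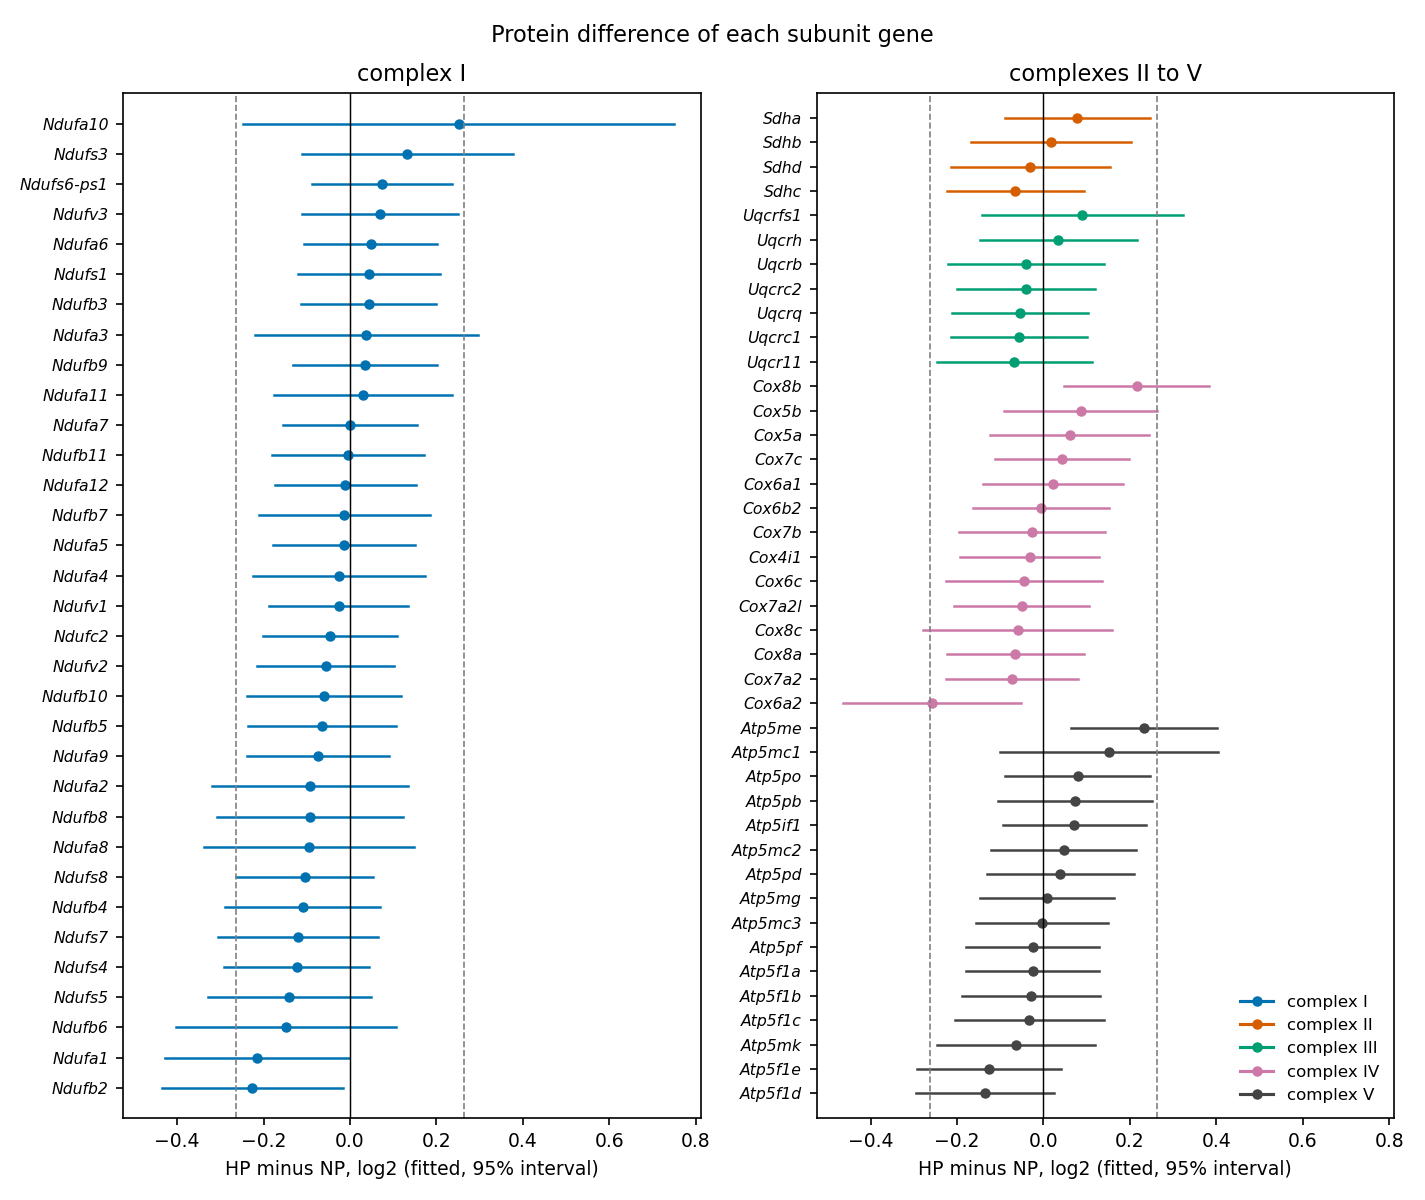
Fitted HP minus NP difference (log2) of each of the 74 subunit genes with its 95% interval, complex I on the left and complexes II to V on the right. The dashed lines mark 1.2-fold, and the intervals of 52 genes lie wholly between them.

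No marker of another cell type passed the protein test, where 0.0440% of all probe sets did. An unadjusted p under 0.05 (limma) was reached by 6 of the 9 macrophage markers, where 8.71% of all probe sets reached it. It was also reached by 1 endothelial, 1 bile duct and 1 lymphocyte marker, and by 0 stellate and fibroblast and 0 red cell markers. A fitted difference above 0 was found for 49.4% of all probe sets. All 9 macrophage markers had a fitted difference above 0, and their summed level (log2) lay between 11.83 and 12.05 on the HP arrays and between 11.67 and 11.81 on the NP arrays. All 4 tested bile duct markers had one too, with summed levels of 8.12 to 8.22 on the HP arrays and of 7.92 to 8.10 on the NP arrays. So had 4 of 4 tested endothelial, 4 of 6 stellate and fibroblast, 2 of 2 lymphocyte and 2 of 3 red cell markers. Their part in the subunit values was not tested. The 8 hepatocyte markers summed to between 16.21 and 16.24 on the HP arrays and to between 16.20 and 16.23 on the NP arrays.

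Taken 1 array against 1 array, and so with no test, HP and NP diets were apart by 1.2-fold or more for 2 subunit genes on low fat (2.70%, against 12.4% of all probe sets tested). They were so for 7 on high sucrose (9.46%, against 11.9%) and for 5 on high sucrose with high fat (6.76%, against 14.6%). None differed by 1.2-fold in 1 direction in all 3 backgrounds, as 1.11% of all probe sets did. At 1.5-fold or more the counts were 0 on low fat (against 1.38%), 1 on high sucrose (1.35%, against 1.39%) and 0 on high sucrose with high fat (against 306 of 20450 probe sets). One direction of any size in all 3 backgrounds was seen for 29 genes (39.2%, against 29.5%), 20 of them lower with HP. On low fat the genes were Ndufa1 at -0.35 and Cox8b at 0.31. On high sucrose they were Ndufa10 at 0.94, Ndufs3 at 0.41, Uqcrfs1 at 0.34, Atp5mc1 at 0.31, Cox8c at -0.29, Ndufa8 at -0.34 and Cox6a2 at -0.46. On high sucrose with high fat they were Atp5me at 0.31, Atp5mc1 at 0.29, Ndufa1 at -0.29, Ndufb6 at -0.39 and Ndufb2 at -0.42.

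In that last background the genes as a group were lower on the high protein array. On HP-HS-HF 21 of 74 lay above their NP-HS-HF value (28.4%, against 51.4% of all probe sets) and 53 below, with a median of -0.044 beside 0.0051 for all. Bright probe sets shared part of this: with a mean of log2 9 or more, 1657 of 3773 lay above, with a median of -0.018, and 16 of the 59 subunit genes at that level did, with a median of -0.043. Complex I had 27 of 33 genes below and a median of -0.057, and complex III had 6 of 7 below and a median of -0.087. Below were also 2 of 4 genes of complex II, 8 of 14 of complex IV and 10 of 16 of the ATP synthase. Quantile normalization gave 47 below with a median of -0.026 beside 0.0017 for all. Median centring of the arrays shifts all probe sets alike, and gave a median of -0.077 beside -0.027 for all. On low fat the median was -0.0042, with 36 genes above and 38 below, and on high sucrose 0.00076, with 37 on each side. After median centring the low fat median was 0.016 beside 0.018 for all, so its sign there is that of the scaling. With 1 array per diet these shifts have no replicate check.

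The genes with the widest ranges did not all follow 1 pattern. Ndufa10 (10889764) had 6.38, 7.07 and 6.56 on HP, HP-HS and HP-HS-HF, against 6.34, 6.13 and 6.78 on NP, NP-HS and NP-HS-HF. The highest and lowest of its values both came from high sucrose, and its fitted protein difference was 0.25 ± 0.21 (SE; limma, adjusted p = 0.811). It was -0.092 without HP-HS or NP-HS and up to 0.49 with another array left out. Another probe set that lists Ndufa10 together with a second symbol was not used. Ndufs3 (10847283), a core subunit of complex I, had 9.25, 9.57 and 9.35 on the HP arrays, against 9.24, 9.16 and 9.37 on the NP arrays. It too was highest on HP-HS and lowest on NP-HS, as were Uqcrfs1, Cox5a, Cox5b, Atp5pb and Atp5mc2. Cox6a2 and Ndufa8 were among those with the reverse, highest on NP-HS and lowest on HP-HS.

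Atp5mc1 (10746583), another gene for the c subunit, had 10.44, 10.66 and 10.43 on the HP arrays, against 10.58, 10.34 and 10.15 on the NP arrays. It was lower with HP on low fat and higher in both sucrose backgrounds, whereas Atp5mc2 (10907634), a further gene for that protein, lay between 10.61 and 10.76. Ndufb6 (10876011), an accessory subunit of complex I, had 10.94, 10.83 and 10.55 on the HP arrays, against 10.82, 11.00 and 10.94 on the NP arrays. Its low value on HP-HS-HF sets its range of 0.45.

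**Figure D4:**
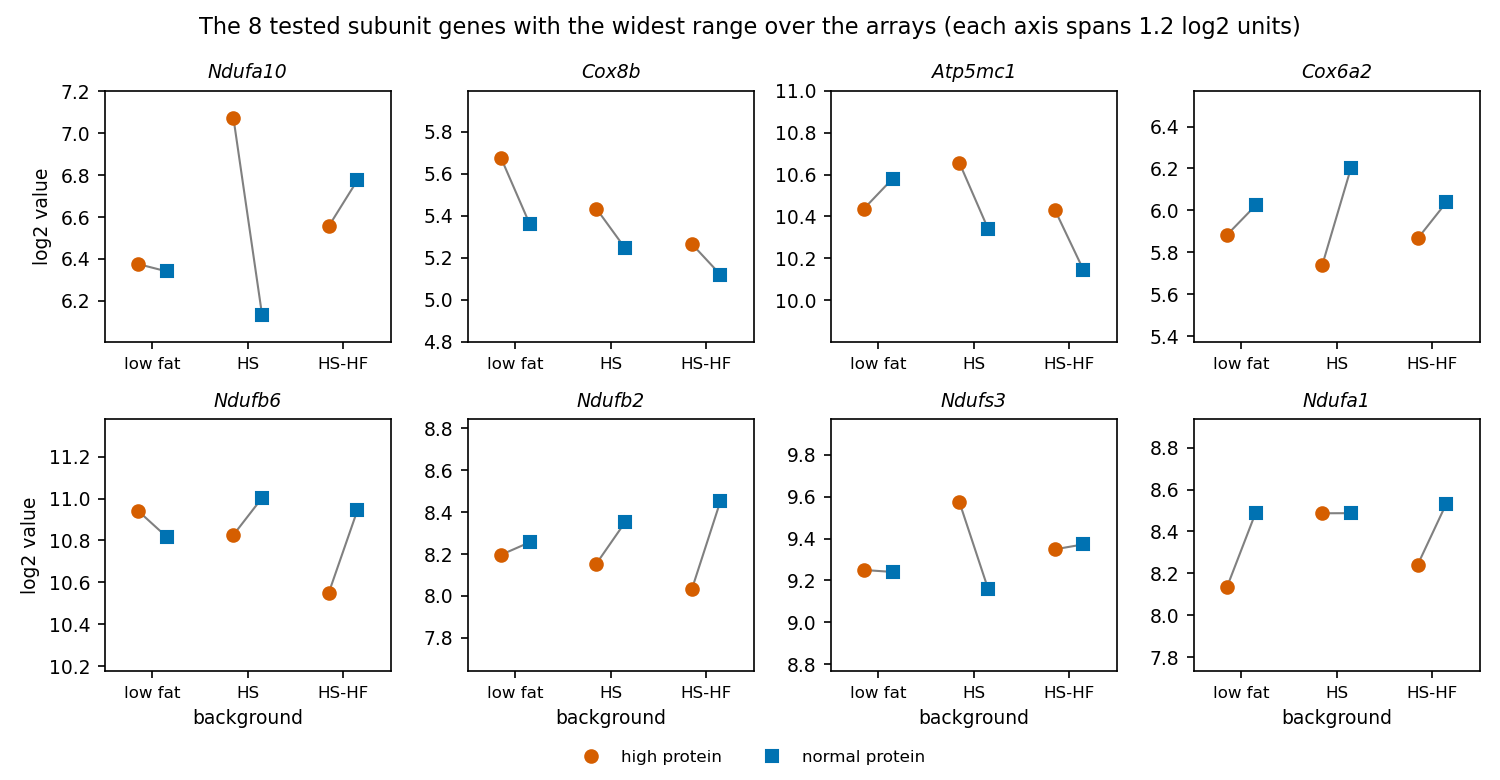
Log2 values of the 8 tested subunit genes with the widest range, for the 3 backgrounds, with high protein (circles) left of normal protein (squares) and a line joining each pair. Ndufa10 spans 0.94 and the eighth gene, Ndufa1, 0.40.

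High sucrose with high fat against low fat, at equal protein, gave 0 subunit genes past the limma test, where 0 of all probe sets passed too. The lowest adjusted p was 0.875, and an unadjusted p under 0.05 was reached by 2 genes (2.70%, against 5.18% of all). The fitted differences were above 0 for 52 of the 74 genes (70.3%, against 48.8% of all) and below 0 for 22, with a median of 0.046 beside -0.0027 for all probe sets. The median was 0.021 without NP-HS-HF, 0.023 without NP and 0.080 without HP-HS-HF. Both HS-HF arrays lay above both low fat arrays for 28 genes (37.8%, against 14.8% of all) and below them for 6 (8.11%, against 15.6%). Complex I had 27 of 33 genes above 0 and a median of 0.050, complex II 2 of 4 and 0.036, complex III 4 of 7 and 0.075, complex IV 8 of 14 and 0.028, and the ATP synthase 11 of 16 and 0.031. The interval of 30 genes lay wholly within 1.2-fold (40.5%, against 31.9% of all) and that of 73 within 1.5-fold (98.6%, against 95.3%).

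Single genes show the size of these differences. Atp5mg (10916920), subunit g of the ATP synthase, had 9.30 on HP-HS-HF and 9.32 on NP-HS-HF, against 9.10 on HP and 9.09 on NP, and it was as high on HP-HS (9.32) and NP-HS (9.28). Its fitted difference was 0.22 ± 0.079 (SE; limma, adjusted p = 0.900). Ndufa6 (10905716), an accessory subunit of complex I, had 10.50 and 10.48 on HP-HS-HF and NP-HS-HF, against 10.34 and 10.28 on HP and NP, with a fitted difference of 0.18 ± 0.078 (SE; limma, adjusted p = 0.953). Sdhb, at 10.34 and 10.32 on HP-HS-HF and NP-HS-HF against 10.08 and 10.20 on HP and NP, differed by 0.19 ± 0.094 (SE; limma, adjusted p = 0.968). Without HP the Sdhb value was 0.088 and without NP 0.29.

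Cox7c (10820277), a small subunit of complex IV, had 11.57 and 11.53 on HP-HS-HF and NP-HS-HF, against 11.41 and 11.34 on HP and NP. In the other direction Cox8b had 5.27 and 5.12 on those HS-HF arrays, against 5.68 and 5.36 on HP and NP. This was the largest difference downward, at -0.33 ± 0.085 (SE; limma, adjusted p = 0.875). Atp5mc1 differed by -0.22 ± 0.13 (SE; limma, adjusted p = 0.992), and its single array difference at normal protein was -0.43. It was 0.0018 without NP and -0.44 without HP.

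Split by protein level, each value is 1 array against 1 array, and the difference between the levels was not tested. At high protein HS-HF lay above low fat for 43 of 74 genes (58.1%, against 50.1% of all), with a median of 0.020 beside 0.00022 for all. At normal protein it did so for 55 (74.3%, against 49.1% of all), with a median of 0.0685 beside -0.0031 for all. Among probe sets with a mean of log2 9 or more, 2159 of 3773 were also higher at normal protein, with a median of 0.019, and 43 of the 59 subunit genes at that level were, with a median of 0.078. With quantile normalization the medians were 0.040 at high protein and 0.052 at normal protein, both beside values under 0.001 for all. With median centring they were -0.0078 at high protein, beside -0.028 for all, and 0.094 at normal protein, beside 0.022 for all. NP-HS-HF was the highest of the 6 arrays for 24 genes (32.4%, against 16.1% of all) and the lowest for 3 (4.05%, against 17.7%). The protein levels share no array. A difference of 1.2-fold or more was seen for 4 genes at high protein (5.41%, against 11.9%; Ndufa3 at 0.30, Sdhb at 0.26, Ndufb6 at -0.39 and Cox8b at -0.41) and for 2 at normal protein (2.70%, against 11.7%; Ndufa10 at 0.43 and Atp5mc1 at -0.43). None reached 1.5-fold, as 1.19% of all did at high protein and 1.16% at normal protein. None reached 1.2-fold in 1 direction at both levels (against 1.58%), and 44 had 1 direction at both (59.5%, against 47.6%). Beside these values the summed macrophage markers were lowest on NP-HS-HF, at 11.67, as were the bile duct markers, at 7.92, and the 6 stellate and fibroblast markers were highest there, at 10.67 against 10.47 to 10.60 on the others. Their part in the subunit values was not tested.

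High sucrose against low fat gave 0 subunit genes and 0 of all probe sets past the limma test, with 1 gene at an unadjusted p under 0.05 (1.35%, against 3.02% of all). The fitted differences were above 0 for 49 genes (66.2%, against 49.9% of all), with a median of 0.027 beside -0.00011. The gene at the unadjusted threshold was Atp5mg, at 0.20 ± 0.079 (SE; limma, adjusted p = 1.000). The largest fitted value upward was that of Ndufa10, at 0.24 ± 0.25 (SE), and the largest downward that of Atp5po, the stalk protein that confers oligomycin sensitivity, at -0.19 ± 0.085 (SE). Without HP that of Atp5po was -0.11, and without HP-HS that of Ndufa10 was -0.27. The median over the genes was 0.00695 without NP. The 95% interval of 39 genes lay wholly within 1.2-fold (52.7%, against 36.1% of all) and that of 73 within 1.5-fold (98.6%, against 96.6%).

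At high protein the HS array lay above the low fat array for 41 genes (55.4%, against 49.0% of all) and at normal protein for 43 (58.1%, against 50.3%), with medians of 0.019 and 0.033. At 1.2-fold or more stood 5 genes at high protein (6.76%, against 9.03%) and 0 at normal protein (against 9.54%). At 1.5-fold or more stood 1 at high protein (1.35%, against 0.890%) and 0 at normal protein (against 0.866%). The 5 were Ndufa10 at 0.70, Ndufa1 at 0.35, Ndufs3 at 0.32, Atp5po at -0.27 and Cox8c at -0.31. None reached 1.2-fold in 1 direction at both protein levels, as 0.880% of all did, and 28 had 1 direction at both (37.8%, against 44.4%).

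Adding fat to high sucrose gave 0 subunit genes and 0 of all probe sets past the limma test, and 1 gene at an unadjusted p under 0.05 (1.35%, against 4.95% of all). This was Atp5po (10753198), with 8.87 on HP-HS-HF and 8.83 on NP-HS-HF, against 8.61 on HP-HS and 8.59 on NP-HS. It was as high on HP (8.88) and lower on NP (8.70), and the fitted difference was 0.25 ± 0.085 (SE; limma, adjusted p = 0.952). Of the 74 genes 41 lay above 0 (55.4%, against 48.9% of all), with a median of 0.018 beside -0.0026, and of -0.0011 without NP-HS. The 95% interval of 38 genes lay wholly within 1.2-fold (51.4%, against 32.3% of all) and that of 73 within 1.5-fold (98.6%, against 95.5%). The median was -0.016 at high protein, with 33 genes higher (44.6%, against 50.2% of all), and 0.035 at normal protein, with 49 higher (66.2%, against 48.5%).

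A fat difference of 1.2-fold or more was seen for 2 genes at high protein (2.70%, against 11.3% of all; Ndufb6 at -0.28 and Ndufa10 at -0.52) and for 2 at normal protein (2.70%, against 9.71%; Ndufa10 at 0.64 and Ndufa2 at 0.37). At 1.5-fold or more stood 0 at high protein (against 1.27%) and Ndufa10 alone at normal protein (1.35%, against 0.934%). None reached 1.2-fold in 1 direction at both levels (against 1.53%), and 36 had 1 direction at both (48.6%, against 51.1%).

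**Figure D5:**
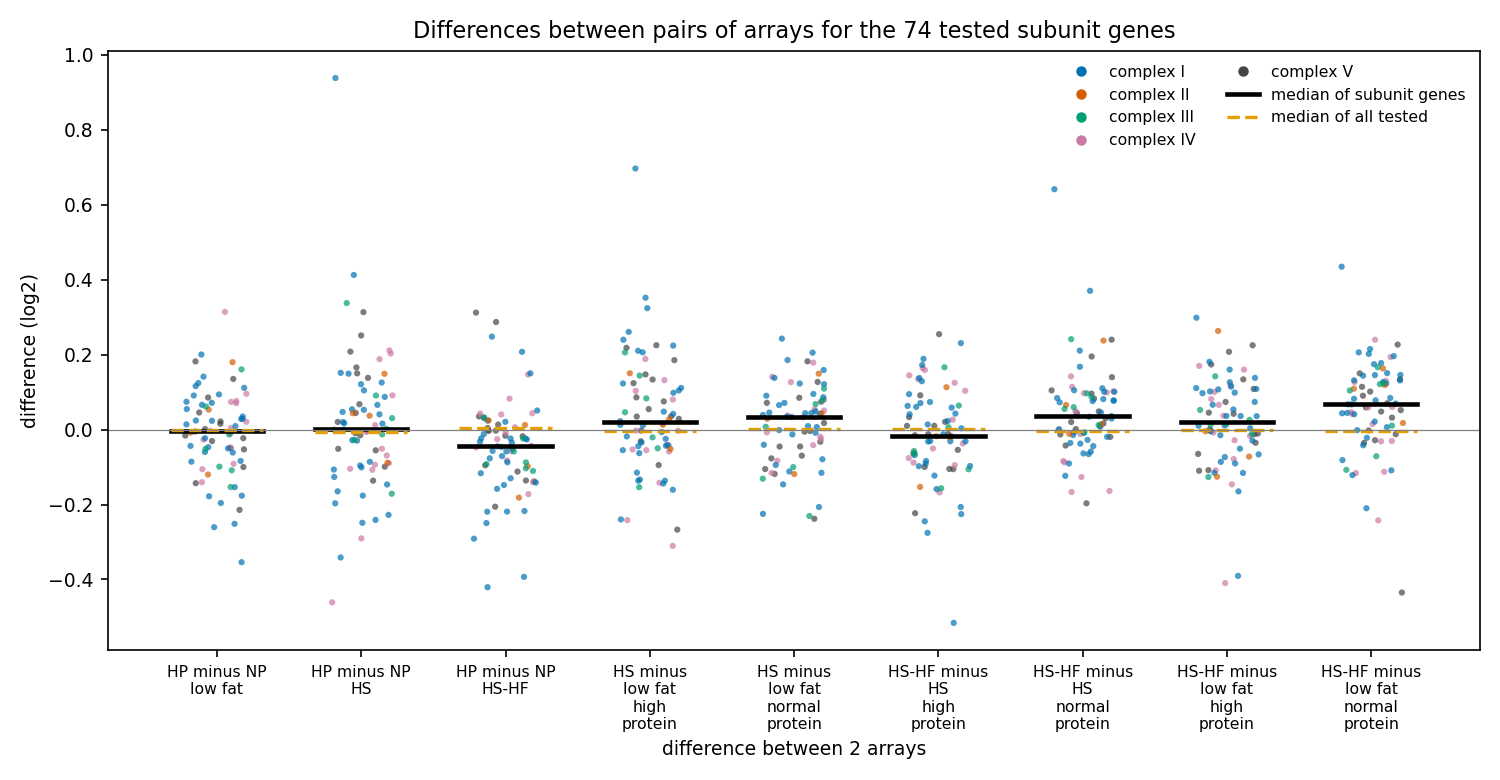
Differences between 2 arrays (log2) for the 74 subunit genes, with the median of the genes in black and that of all probe sets tested as an orange dashed line. The black median stands lowest for HP minus NP on HS-HF (-0.044) and highest for HS-HF minus low fat at normal protein (0.0685).

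The sucrose differences were also set side by side between protein levels, without a test. Across the 74 genes the sucrose difference at high protein and that at normal protein, which share no array, had a Pearson correlation of -0.49 (Spearman -0.49), and 46 genes (62.2%) had opposite signs. Over all 20450 probe sets the correlation was -0.11 and 55.6% had opposite signs. Without Ndufa10 the correlation over the 73 others was -0.44. For fat added to sucrose the correlation was -0.24, and 0.033 without Ndufa10, and for sucrose with fat against low fat it was 0.16. The protein differences on the HS and the HS-HF backgrounds correlated at 0.27 (0.45 without Ndufa10), beside 0.24 over all probe sets. Those on low fat and HS correlated at -0.069 (-0.12 without Ndufa10), beside 0.15 over all. For low fat and HS-HF the value was 0.14 (0.15 without Ndufa10), beside 0.12 over all. Genes are not independent replicates, and those of 1 array share its pool and its labelling, so these values describe the arrays.

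Where a gene had several probe sets these mostly ran together. Of the 76 genes 11 had more than 1 probe set. The 3 probe sets of Uqcrb, the ubiquinone-binding protein of complex III, differed by at most 0.015 in their deviation from their own means on any array, and those of Cox7a2, Ndufs5 and Atp5mk by at most 0.037. Subunits of the chain have many processed pseudogenes, so probe sets of this kind may share transcripts and their values are uncertain as to locus. The gap was 0.099 for Atp5mc3, and Ndufv3, a regulatory subunit of complex I, had the widest, at 0.19. Its brighter probe set (10767821) had 11.37, 11.35 and 11.26 on the HP arrays, against 11.17, 11.29 and 11.30 on the NP arrays. Its dimmer one (10829158) had 7.52, 7.54 and 7.54 on the HP arrays, against 7.69, 7.67 and 7.75 on the NP arrays. The fitted protein difference was 0.069 for the brighter and -0.17 for the dimmer, whose groups do not overlap.

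Genes that work beside the subunits gave 0 calls as well, by limma and for each of the 4 effects. Of all probe sets 0.0440% were called for protein, and 0 for sucrose, for fat and for sucrose with fat. The lists held 20 electron carriers and other entry points, 30 assembly factors, 17 genes of mitochondrial transcription and its coactivators, 11 of the citrate cycle, 9 carriers and 68 mitochondrial ribosomal proteins that were tested. At an unadjusted p under 0.05 for protein were 4, 1, 2, 1, 0 and 1 of them in that order, beside 8.71% of all probe sets. The median protein difference lay between -0.040 for the electron carriers and 0.024 for the carriers of adenine nucleotides and phosphate. The median for sucrose and fat was 0.046 for the electron carriers and 0.056 for the citrate cycle. It was 0.046 for the subunit genes and -0.0027 for all probe sets. Above 0 lay 13 of 20 electron carriers and 8 of 11 citrate cycle genes, against 48.8% of all. For sucrose alone and for fat alone the citrate cycle medians were -0.0028 and -0.00021, each with 5 of 11 above 0. The sucrose and fat median was 0.015 for the mitochondrial ribosome and 0.0089 for transcription. It was -0.0010 for the assembly factors and -0.045 for the carriers.

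The coactivator Ppargc1a (10772986), a driver of mitochondrial gene expression, had 6.44, 6.58 and 6.32 on the HP arrays, against 6.21, 6.14 and 6.18 on the NP arrays. The groups do not overlap, as for 14.9% of all probe sets, with a fitted difference of 0.27 ± 0.081 (SE; limma, adjusted p = 0.417). Its relative Ppargc1b (10804678) had 8.05, 8.16 and 8.11 on the HP arrays, against 7.88, 7.88 and 7.89 on the NP arrays, with 0.22 ± 0.066 (SE; limma, adjusted p = 0.414). Beside them the median deviation of the subunit genes was -0.027, 0.0040 and -0.00013 on HP, HP-HS and HP-HS-HF, against -0.024, 0.0086 and 0.050 on NP, NP-HS and NP-HS-HF. The mitochondrial transcription factor Tfam lay between 7.72 and 7.87. Of the 17 tested genes of mitochondrial transcription and its coactivators 8 had a fitted protein difference above 0, against 49.4% of all probe sets. Their median was -0.0080.

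In the ubiquinone pathway, Coq10b (10923338), which binds ubiquinone, had 9.23, 9.24 and 8.93 on the HP arrays, against 8.94, 8.58 and 8.55 on the NP arrays. It differed by 0.44 ± 0.088 (SE; limma, adjusted p = 0.219). Coq8a (10770313), an atypical kinase of ubiquinone synthesis, had 10.16, 10.22 and 10.30 on the HP arrays, against 10.44, 10.52 and 10.62 on the NP arrays. It differed by -0.30 ± 0.064 (SE; limma, adjusted p = 0.252), and its groups do not overlap. Prodh, the proline dehydrogenase that feeds the chain from proline, stood at 0.31 ± 0.089 (SE; limma, adjusted p = 0.409).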

How the data were processed

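Whole-transcript arrays measured pooled liver RNA of 6 diets, 1 array each, which limits the precision. The authors deposited log2 values per probe set, summarised by RMA per the submitters' processing notes; the sources used here give no version, settings or genome build. RNA was extracted with TRIzol, its integrity number was at least 7.0, 1500 ng per rat was pooled and 100 ng labelled, per the labels' protocols. The table has 29214 probe sets, of which 15310 had 1 gene symbol, 323 several and 13581 none in the platform annotation. All 76 symbols matched RefSeq by Entrez number.

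Probe sets above the 30th percentile of the mean (70.0%, 20450) were fitted with limma 3.58.1 in R 4.3.3, with terms for protein level and background. With 2 residual degrees of freedom, the moderated variance drew on 4.37 prior degrees and a prior SD of 0.094. P-values were adjusted by Benjamini-Hochberg over all probe sets tested. An interaction would use up all degrees of freedom and was not fitted. A protein difference that varies between backgrounds therefore enters the residual and the standard errors. The fit was also run on simulated data, with protein differences larger than any fitted for the subunit genes. That run does not show what the fit detects at their size. Genes to name were taken by rule: those past the test, the largest fitted differences of each effect, the 8 widest ranges, catalytic subunits, isoform pairs and those past 1.2-fold. The members and lists were chosen with earlier results of these data known. Alternatives changed the scaling, the filter, the probe set per gene, the variance estimate and the arrays.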

Additional observations from a re-analysis of the deposited data

Results flagged for a closer look

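The median fat difference of the subunit genes had opposite signs at the protein levels, with a value of -0.016 at high protein and 0.035 at normal protein. The difference between them was not tested, because each is 1 array against 1 array. The fat difference of Ndufa10 was -0.52 at high protein and 0.64 at normal protein, which also was not tested.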

How the results depend on the processing

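Under the alternatives run for each effect (quantile normalization, median centring, no filter, the mean of the probe sets of a gene, an ordinary t statistic, each array left out and, for the diet backgrounds, the 4 arrays of the contrast alone) 0 subunit genes were called. With an ordinary t statistic 0 probe sets passed at all. The same held for protein when a low fat or a high sucrose array was left out. It also held for sucrose, for fat and for sucrose with fat, in the main fit and in most alternatives. Where 0 of all probe sets pass, 0 subunit genes adds no evidence. With arrays left out in turn, the median sucrose difference of the genes ranged between 0.00695 (without NP) and 0.043 (without NP-HS), the median fat difference between -0.0011 (without NP-HS) and 0.044 (without HP-HS-HF), and that of sucrose and fat between 0.021 (without NP-HS-HF) and 0.080 (without HP-HS-HF). The median protein difference ranged between -0.026 and -0.013 (without either HS-HF array). All tested genes were refitted with each array left out. Single genes were looked at only for the 4 largest fitted differences upward and the 4 largest downward per effect. Those that changed sign were, for protein, Ndufa10 (-0.092 to 0.49, turned by HP-HS or NP-HS). For sucrose they were Cox8c (-0.30 to 0.043) and Ndufa10 (-0.27 to 0.76), both turned by HP-HS. For fat they were Ndufb6 (-0.35 to 0.017, HP-HS-HF), Ndufa4 (-0.24 to 0.025, HP-HS) and Ndufa2 (-0.013 to 0.35, NP-HS). For sucrose and fat they were Atp5mc1 (-0.44 to 0.0018, NP), Ndufb6 (-0.34 to 0.073, HP or HP-HS-HF) and Ndufa10 (-0.045 to 0.66, NP-HS-HF). The cause was not tested. At 1.5-fold in place of 1.2-fold, the counts of genes that differed between high and normal protein were 0 (low fat), 1 (high sucrose) and 0 (HS-HF), by construction of the stricter limit. No paired analysis was possible because each diet has 1 array and so no replicate numbers to share; HP and NP of a background are already matched by the background term of the model.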
